A study of Mus musculus with 6 samples.

Results

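The genes described here encode the core of the transforming growth factor beta (TGF-beta) pathway in cultured mouse macrophages. They are 10 genes of 45193 in the count table, chosen by symbol: the ligand gene Tgfb1, the receptor genes Tgfbr1 and Tgfbr2, the signal transducer genes Smad2, Smad3, Smad4 and Smad7, and the corepressor genes Ski, Skil and Tgif1. All 10 passed the filter on low counts, as did 12011 genes of the table. RNA sequencing compared 3 libraries of RXRKO macrophages with 3 libraries of WT macrophages. The RXRKO cells came from mice with the genotype RXRa fl/fl LysMCre RXRb-/-, in which Cre is expressed from the lysozyme M locus of myeloid cells and Rxrb is inactivated throughout the animal. The WT cells came from mice for which the labels give no modified allele. Both groups are given as C57BL/6J, were grown from bone marrow over 6 days in L929-conditioned medium, which supplies CSF-1, and then received DMSO in serum-free medium for 3 hours. Effects of RXR loss, of the Cre allele and of the change at the lysozyme locus therefore cannot be told apart. The difference in sex-linked transcripts given below cannot be told apart from these effects either. The labels call the replicates biological without naming animals, so a p-value here reflects how far these libraries spread and no more.

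TGF-beta is secreted in a latent form and, once released, binds the type II receptor TGFBR2, which recruits and phosphorylates the type I receptor TGFBR1. The activated TGFBR1 phosphorylates SMAD2 and SMAD3, which join SMAD4, enter the nucleus and act on target genes. SMAD7 blocks the receptor, while SKI, SKIL (also called SnoN) and TGIF1 hold the SMAD complex in a repressed state. In macrophages TGF-beta is known for restraining inflammatory activation and for its part in the clearance of dying cells and in tissue-resident identity.

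Total counts ranged from 17250051 to 25091019 in RXRKO libraries and from 7880320 to 14957253 in WT libraries, so depth and genotype were not separated. Macrophage markers were abundant, with Csf1r at 2914 ± 208 CPM (counts scaled to library size with TMM factors) in RXRKO cells and 2216 ± 141 CPM in WT cells (SD, n = 3 each). Rxrb averaged 9.27 CPM in RXRKO cells and 66.7 CPM in WT cells, and Lyz2, the lysozyme gene at the Cre locus, averaged 28.4 CPM in RXRKO cells and 15258 CPM in WT cells. Rxra stood at 109 CPM in RXRKO cells and 104 CPM in WT cells, a gene-wide count that cannot show whether its floxed part was lost. Xist, the female-specific RNA, had 209, 267 and 236 CPM in RXRKO libraries and 0 in each WT library, while the Y-linked gene Ddx3y had 49.9, 49.7 and 55.4 CPM in RXRKO libraries and 108, 112 and 101 CPM in WT libraries. Each RXRKO library thus held both transcripts. This difference ran with genotype in every library, so it cannot be told apart from genotype here, and its part in the results was not tested.

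Promoters are shown for Smad3 and Ski, the members that passed the test, and for Tgfb1, which came nearest to passing among the others. Each is given as the 250 bases before the RefSeq transcription start in build GRCm38.p6, 5′ to 3′ on the gene's strand. Capitals mark the GC box GGGCGG, the classical site of SP1-family factors, on either strand.
Smad3, chr9:63757995-63758244, minus strand: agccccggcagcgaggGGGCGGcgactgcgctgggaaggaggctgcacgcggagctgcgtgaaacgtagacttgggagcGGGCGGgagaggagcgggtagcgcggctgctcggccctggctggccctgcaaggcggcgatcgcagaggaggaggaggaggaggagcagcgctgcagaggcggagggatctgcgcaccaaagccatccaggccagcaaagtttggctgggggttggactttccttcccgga
Ski, chr4:155222536-155222785, minus strand: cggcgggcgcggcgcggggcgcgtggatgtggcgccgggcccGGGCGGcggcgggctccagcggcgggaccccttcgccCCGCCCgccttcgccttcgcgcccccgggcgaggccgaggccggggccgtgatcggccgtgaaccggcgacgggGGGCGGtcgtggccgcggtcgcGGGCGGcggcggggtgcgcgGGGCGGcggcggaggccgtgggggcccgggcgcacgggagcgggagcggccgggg
Tgfb1, chr7:25686752-25687001, plus strand: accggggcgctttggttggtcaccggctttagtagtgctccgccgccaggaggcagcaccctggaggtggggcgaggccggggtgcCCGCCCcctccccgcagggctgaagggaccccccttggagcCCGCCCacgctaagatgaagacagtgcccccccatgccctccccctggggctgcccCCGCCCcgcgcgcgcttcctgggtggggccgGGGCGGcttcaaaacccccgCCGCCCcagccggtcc
The window of Smad3 held 2 GC boxes, 234 and 171 bases before the start, with a GC content of 69.2%. Ski held 5 in a window of 87.6% GC, and Tgfb1 held 5 in a window of 75.2% GC. Across 32851 RefSeq windows of this length, 32.7% held at least 1 GC box. The nuclear receptor half-site AGGTCA, found in 14% of all windows, and the SMAD box CAGAC, found in 42.2%, were searched on both strands and had no match in these 3 windows. Among the 11 windows of the 6 members with an entry, AGGTCA occurred in 1, at Tgif1, and CAGAC in 5, at Tgfbr1, Tgfbr2 and Tgif1. AGGTCA and CAGAC can share the letters CA, and a match is a description and not a binding site. GENCODE M21 starts the Ski gene further upstream, so that the last 57 bases of its window lie inside the gene there, against 0 bases for Smad3 and Tgfb1. Smad2, Smad4, Smad7 and Skil had no entry.

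Of the 10 genes, 2 were higher and passed the test in RXRKO macrophages, Smad3 and Ski, 0 fell and 8 did not pass (edgeR quasi-likelihood test, Benjamini-Hochberg adjusted p under 0.05 over all tested genes). Among all 12011 tested genes 19.4% passed (9.77% of all tested genes as higher and 9.61% as lower in RXRKO cells), so the share of these genes that passed was near the background. Of the 3 with lower RXRKO values, 1 (Tgfb1) had an unadjusted p under 0.05, and it fell with DESeq2 and not with limma-voom. Their median log2 fold change was 0.15, beside -0.00476 over all tested genes. The values of the groups did not overlap in 5 of the 10, where this held for 36.9% of all tested genes. In bulk RNA, fewer cells of a type that holds a transcript and less of that transcript per cell cannot be told apart.

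**Figure D1:**
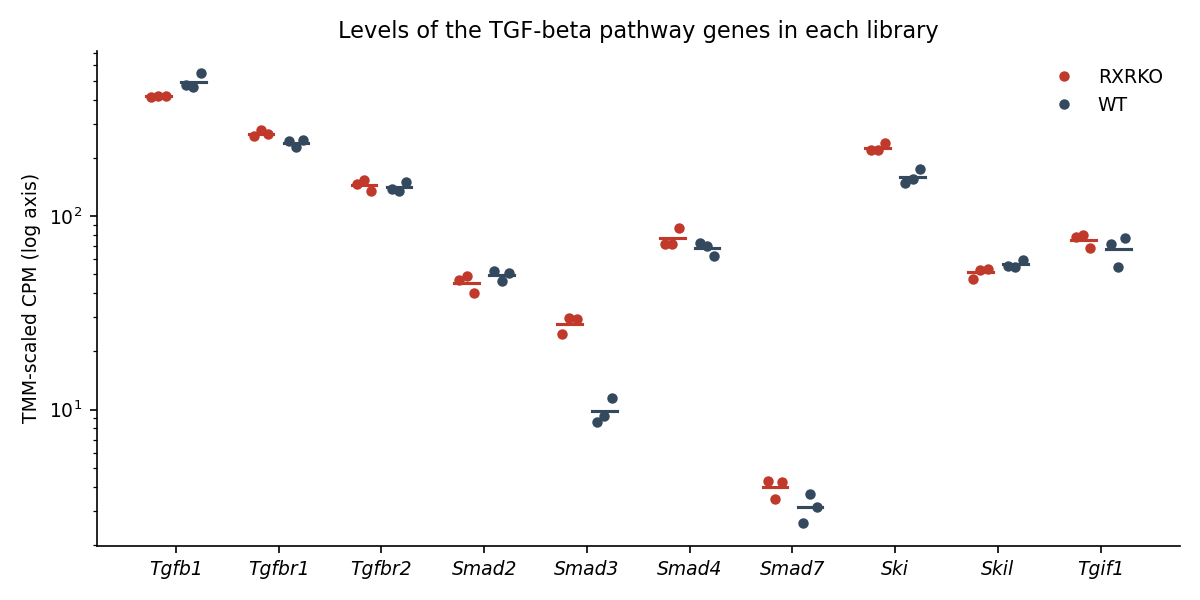
TMM-scaled CPM of each gene (log axis) in the 3 RXRKO and 3 WT libraries, with a point per library and a line at the mean. Smad3 stands apart most clearly, at 24.5 to 29.6 CPM in RXRKO libraries and 8.61 to 11.5 CPM in WT libraries.

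The ligand gene Tgfb1 (ENSMUSG00000002603, chromosome 7, 25687002 to 25705077 in GRCm38, plus strand) was the most abundant of the 10. It had 414, 418 and 419 CPM in RXRKO libraries, against 474, 463 and 547 CPM in WT libraries. Every RXRKO library lay below every WT library, with a coefficient of variation of 0.672% in RXRKO cells and 9.21% in WT cells. The log2 fold change was -0.25 (SE 0.0832, 95% interval -0.43 to -0.07 before adjustment), and the edgeR adjusted p of 0.055 missed the threshold. Tgfb1 passed with DESeq2 (adjusted p = 0.0393) and in edgeR without WT replicate 2 (adjusted p = 0.0454). It did not pass in the other 14 alternatives, where the adjusted p went up to 0.19.

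The receptor genes did not pass the test. Tgfbr1, which encodes the kinase that phosphorylates SMAD2 and SMAD3, had 258, 277 and 264 CPM in RXRKO libraries, against 245, 227 and 247 CPM in WT libraries. Its groups did not overlap, with all RXRKO values higher, and the log2 fold change of 0.15 had a 95% interval from -0.02 to 0.32 (edgeR adjusted p = 0.197). Tgfbr2, the ligand-binding receptor, had 146, 153 and 134 CPM in RXRKO libraries, against 138, 135 and 150 CPM in WT libraries. These ranges overlapped, and the log2 fold change of 0.03 had an interval from -0.15 to 0.21 (edgeR adjusted p = 0.832). The intervals of both receptor genes leave out a change of 2-fold in either direction.

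Smad3 (ENSMUSG00000032402, chromosome 9, 63646767 to 63757994, minus strand) showed the largest difference of the 10. It had 24.5, 29.6 and 29.4 CPM in RXRKO libraries, against 8.61, 9.26 and 11.5 CPM in WT libraries, on 421, 747 and 541 reads against 83, 71 and 176 reads. The lowest RXRKO library held more than 2 times the highest WT library. Smad3 rose 2.81-fold, a log2 fold change of 1.49 (SE 0.14, 95% interval 1.19 to 1.79, edgeR adjusted p = 1.26e-05), the 129th highest log2 fold change of the 12011 tested genes. It passed in all 16 alternatives, with log2 fold changes from 1.40 to 1.64. Its sequence upstream of the start is the first of the 3 windows above.

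Smad2, the other receptor-activated SMAD gene, did not pass the test. It had 46.8, 49.3 and 39.9 CPM in RXRKO libraries, against 52.3, 46.3 and 50.9 CPM in WT libraries, with overlapping groups. Its log2 fold change was -0.14 (95% interval -0.36 to 0.08, edgeR adjusted p = 0.382). Smad2 lies on chromosome 18 (76241580 to 76310963), as do Smad4 and Smad7. How reads that match both SMAD genes were assigned is not given in the sources used here.

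Because the levels of both genes come from the same library, their ratio is free of the scaling between libraries. Per exon base, Smad3 reads stood at 0.83, 0.954 and 1.17 times Smad2 reads in RXRKO libraries, against 0.261, 0.317 and 0.358 times in WT libraries. The ratio averaged 0.984 ± 0.171 in RXRKO cells and 0.312 ± 0.0487 in WT cells (SD, n = 3 each), a 3.15-fold difference. The groups did not overlap. No test is given, since this ratio and that of Ski to Skil were chosen after the values of their genes were seen. Per annotated exon base, Smad3 reads were thus about level with Smad2 reads in RXRKO macrophages and fewer in WT macrophages. The lengths pool all annotated exons, so the level of the ratio depends on them, while the 3.15-fold difference does not.

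**Figure D2:**
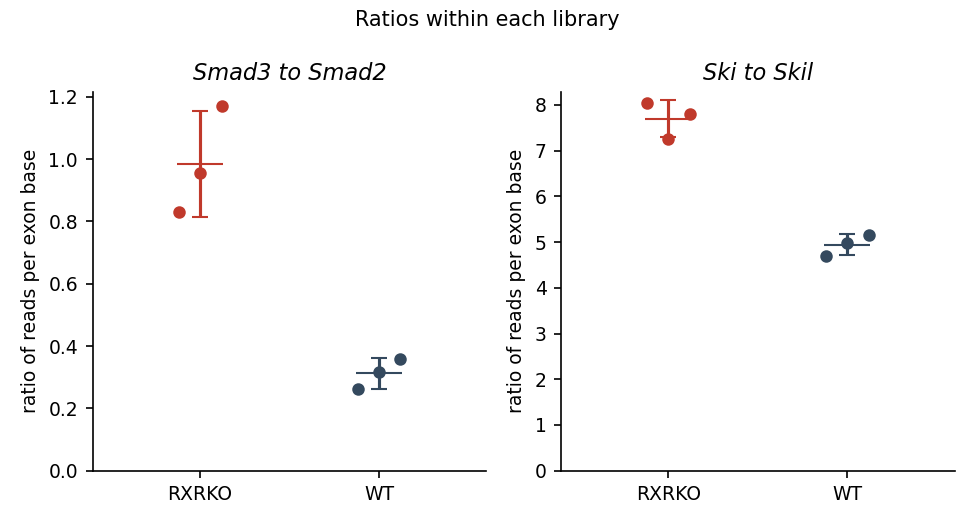
Ratio of reads per exon base within each library, Smad3 to Smad2 (left) and Ski to Skil (right), with a point per library and bars for the mean and SD of 3 libraries. Both ratios were higher in every RXRKO library than in any WT library, at 0.83 to 1.17 against 0.261 to 0.358 and at 7.25 to 8.05 against 4.69 to 5.15.

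Smad4, the partner that both receptor-activated SMADs need, had 72.1, 71.5 and 87 CPM in RXRKO libraries, against 72.8, 70.2 and 62.2 CPM in WT libraries. RXRKO replicate 3 was high and WT replicate 3 low, and the other values lay close together. The log2 fold change of 0.17 had an interval from -0.05 to 0.39 (edgeR adjusted p = 0.274). The inhibitory SMAD gene Smad7, itself a target that TGF-beta induces, was the scarcest of the 10, with 4.3, 3.45 and 4.24 CPM in RXRKO libraries and 2.59, 3.65 and 3.13 CPM in WT libraries. These were 74, 87 and 78 reads in RXRKO libraries and 25, 28 and 48 reads in WT libraries, and the groups overlapped. Its log2 fold change of 0.36 had a wide interval, -0.12 to 0.83 (edgeR adjusted p = 0.288), which includes both 0 and the log2 fold change of Ski.

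Ski (ENSMUSG00000029050, chromosome 4, 155154075 to 155222592, minus strand), whose product brings repressor complexes to SMADs, also rose. It had 219, 219 and 239 CPM in RXRKO libraries, against 149, 155 and 175 CPM in WT libraries. All RXRKO values were higher than all WT values. Ski rose 1.41-fold, a log2 fold change of 0.50 (SE 0.0862, 95% interval 0.31 to 0.69, edgeR adjusted p = 0.00141). It passed in all 16 alternatives, with log2 fold changes from 0.45 to 0.57 and adjusted p up to 0.0154 (edgeR without WT replicate 1).

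Skil, a close relative of Ski and likewise a target of the pathway, was lower in RXRKO cells without passing. It had 47.4, 52.7 and 53.4 CPM in RXRKO libraries, against 55.3, 54.3 and 59.3 CPM in WT libraries. Every RXRKO value was lower, and the log2 fold change of -0.14 had an interval from -0.33 to 0.06 (edgeR adjusted p = 0.314). Within each library, Ski reads per exon base were 8.05, 7.25 and 7.81 times those of Skil in RXRKO cells, against 4.69, 4.97 and 5.15 times in WT cells. The ratio differed 1.56-fold between the genotypes without overlap, again with no test. Tgif1, a homeobox corepressor gene, had 77.6, 79.5 and 68.1 CPM in RXRKO libraries, against 71.6, 54.6 and 77.1 CPM in WT libraries. WT replicate 2 was low and the groups overlapped, with a log2 fold change of 0.14 (interval -0.12 to 0.40, edgeR adjusted p = 0.447). Tgif1 is on chromosome 17 with Rxrb, 36.8 Mb away, and the other members are on chromosomes that hold neither Rxra, Rxrb nor Lyz2. Among the pathway genes named further below, Acvr2a, Itgav, Thbs1, Mmp9 and Fkbp1a are on chromosome 2, as is Rxra. Whether position played a part in their differences was not tested.

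**Figure D3:**
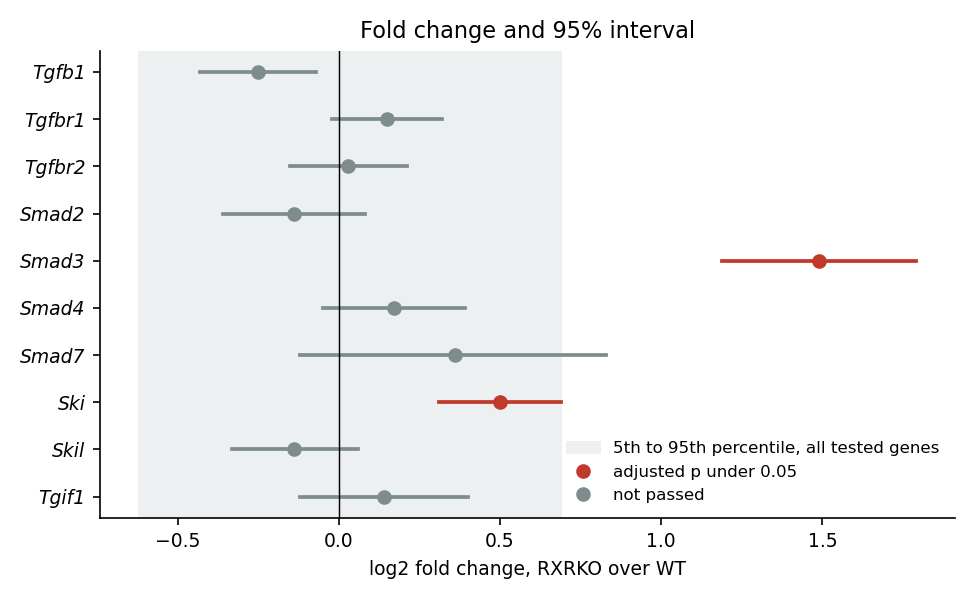
Log2 fold change of RXRKO over WT with its 95% interval from the edgeR fit, before adjustment for multiple tests, beside the range from the 5th to the 95th percentile of all tested genes (-0.62 to 0.69, shaded). Smad3 (1.49) is the member outside that range, Ski (0.50) lies inside it and passed the test, and the other 8 did not pass.

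Set on a per-length scale (CPM per kilobase of annotated exon), the order of the levels ran from Tgfb1 at the top to Smad7 at the bottom in both genotypes. Tgfb1 averaged 82.7 ± 0.556 in RXRKO cells and 98.1 ± 9.04 in WT cells, and its per-length level over all libraries was at percentile 96.1 of tested genes. In RXRKO cells Tgfbr1 (40.8 ± 1.52) and Ski (40.6 ± 2.1) followed and did not differ beyond their spread. In WT cells Tgfbr1 (36.7 ± 1.74) stood above Ski (28.7 ± 2.48) by more than the SDs of both together. Smad4 (20.7 ± 2.36 in RXRKO cells, 18.4 ± 1.49 in WT cells) and Tgfbr2 (17.6 ± 1.16 and 17.2 ± 0.97) came next, with overlapping spreads in each genotype. Below Tgif1 (13.4 ± 1.09 in RXRKO cells, 12 ± 2.08 in WT cells), Skil (5.28 ± 0.34), Smad2 (5.16 ± 0.553) and Smad3 (5.02 ± 0.525) were level in RXRKO cells. In WT cells Skil (5.81 ± 0.274) and Smad2 (5.67 ± 0.357) were level, and Smad3 (1.77 ± 0.273) lay well below both. Smad7 averaged 0.884 ± 0.105 in RXRKO cells and 0.692 ± 0.117 in WT cells. All these are means ± SD of 3 libraries, and the lengths pool all annotated exons, so genes with many alternative exons are understated.

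Of 140 other genes of the pathway, 111 were tested, and 17 rose, 12 fell and 82 did not pass, with a median log2 fold change of 0.02. The share that passed is to be read beside the 19.4% of all tested genes. The count was 16 without RXRKO replicate 1 and 18 without WT replicate 1, where all tested genes gave 1383 and 1286.

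Genes of latency and activation, which hold TGF-beta outside the cell and release it, had the most calls: of 16 tested, 6 rose, 4 fell and 6 failed to pass (median log2 fold change 0.07). Over all tested genes 19.4% passed. The lists were chosen with earlier results of these data known, so the order of lists by calls is a description only. Ltbp3, a binding protein of the latent complex, averaged 108 ± 9.9 CPM in RXRKO cells and 50.1 ± 4.25 CPM in WT cells (SD, n = 3 each) and rose by 1.11 on the log2 scale (SE 0.0986, edgeR adjusted p = 7.83e-06). Among integrins that pull the latent complex open, the alpha-v chain gene Itgav fell (log2 fold change -1.14) and so did Itgb3 (-0.60), while the partner chain genes Itgb8 (1.40) and Itgb1 (0.23) rose. Itgb8 had 2.27, 2.46 and 2.5 CPM in RXRKO libraries, against 0.726, 0.913 and 1.04 CPM in WT libraries, a low level with no overlap. Itgb5 did not pass (-0.08). The protease genes Mmp9 (1.54) and Furin (0.30) rose and Mmp14 (-1.52) fell, as did the matrix gene Fn1 (-1.03), and Thbs1, whose product can activate latent TGF-beta, rose (1.04). The milieu protein gene Nrros, which tethers latent TGF-beta on macrophages, averaged 422 CPM in RXRKO cells and 361 CPM in WT cells and missed the threshold (0.23, edgeR adjusted p = 0.0761). Itgb8, Itgb3, Itgb1, Itgb5, Furin, Fn1, Thbs1 and Nrros were named after their values were seen. The call of Itgb1 was lost when any library other than RXRKO replicate 3 was left out, with library totals alone and with no filter, that of Furin without WT replicate 1 or 2 or RXRKO replicate 1 or 2, and that of Itgb3 without RXRKO replicate 1. The call of Fn1 was lost without WT replicate 1 or 3 or RXRKO replicate 1 and with counts thinned to the smallest library.

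Ligand genes were mostly too scarce to test, with 11 of 15 below the filter and Inha and Mstn at 0 reads. Tgfb3, another TGF-beta isoform, had 2.27, 2.26 and 2.01 CPM in RXRKO libraries, against 0.623, 0.652 and 0.718 CPM in WT libraries, and rose (log2 fold change 1.69, SE 0.325, edgeR adjusted p = 0.00297). Gdf3 rose (1.28) and Gdf15 fell (-0.81), and Inhba did not pass. Of 11 tested receptor and coreceptor genes, 3 rose, 0 fell and 8 did not pass (median 0.03). Acvr2a, an activin type II receptor gene, averaged 18.1 ± 2.36 CPM in RXRKO cells and 11.1 ± 0.387 CPM in WT cells (SD, n = 3 each) and rose (0.72, edgeR adjusted p = 0.00241). The BMP receptor gene Bmpr1a rose on low levels (1.28, edgeR adjusted p = 0.0415), a call lost with DESeq2 and when any library was left out. With 10, 2 and 11 reads in WT libraries, Bmpr1a met the filter on low counts only with its RXRKO libraries. Its rise is therefore a description only. The third was Bmpr2 (0.30, edgeR adjusted p = 0.0421), named after its values were seen and lost without WT replicate 1 or 2 or RXRKO replicate 1 or 2, with library totals alone and with thinned counts.

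**Figure D4:**
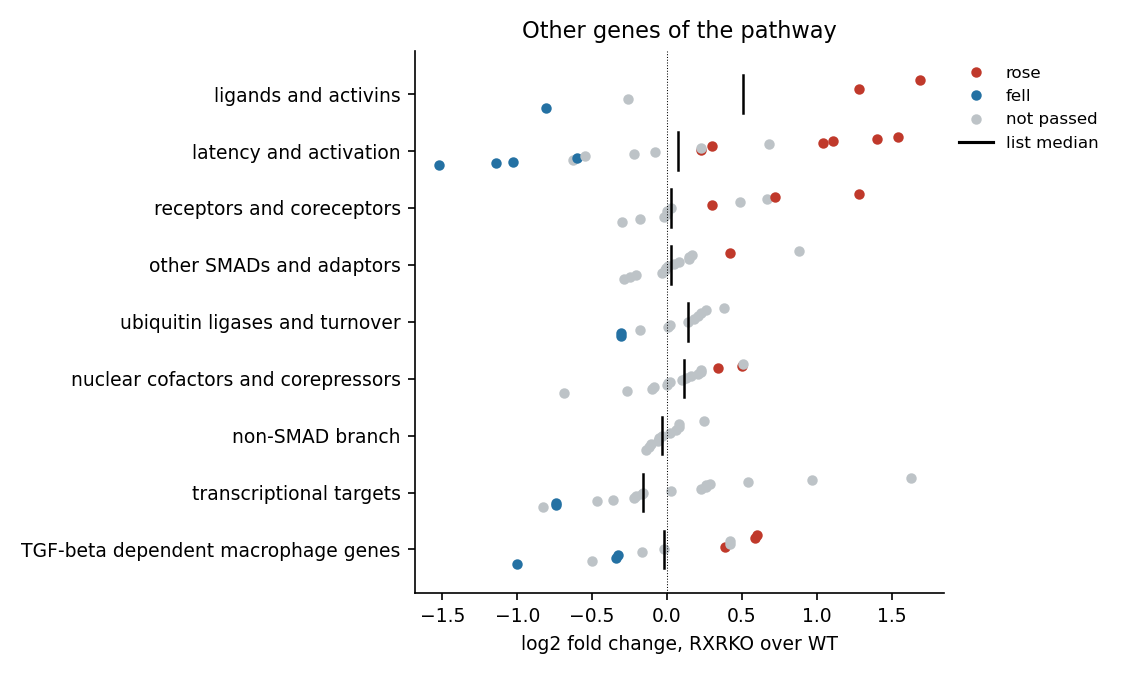
Log2 fold change of RXRKO over WT for the 111 tested genes of 9 pathway lists, coloured by whether they rose, fell or did not pass, with a line at each list's median. The latency and activation list holds the most calls of any list, 10 of 16 genes in both directions, and none fell in the receptor list. Over all tested genes 19.4% passed, and the lists were chosen with earlier results of these data known.

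Inside the cell most genes of the pathway did not pass, as was so for all tested genes, of which 19.4% passed. Of 14 other SMAD and adaptor genes 1 rose and 13 did not pass, and the one that rose was the X-linked deubiquitinase gene Usp9x (log2 fold change 0.42, edgeR adjusted p = 0.0151). Usp9x was lost without WT replicate 1 or RXRKO replicate 1 or 2. As given above, Xist was likewise higher in RXRKO libraries and Ddx3y was lower, and their part in the Usp9x difference was not tested. Of 11 ubiquitin ligase and turnover genes 0 rose, and Fkbp1a, an inhibitor of the type I receptor, and Wwp1 fell (-0.31 each). Both calls were lost without WT replicate 1 or without RXRKO replicate 1 or 3, that of Fkbp1a also without RXRKO replicate 2 and that of Wwp1 without WT replicate 3 and with library totals alone. Of 16 nuclear cofactor genes, Pml (0.50, edgeR adjusted p = 0.00303) and Runx1 (0.34, edgeR adjusted p = 0.0423) rose, 0 fell and 14 did not pass. Runx1 was lost without WT replicate 1 or 2 or RXRKO replicate 1 or 2 and with library totals alone. Of 11 genes of the branch that does not use SMADs 0 passed in edgeR, DESeq2 or limma-voom, and 1 had an unadjusted p under 0.05 in edgeR. The most abundant, the GTPase gene Rhoa, averaged 428 ± 14 CPM in RXRKO cells and 410 ± 7.91 CPM in WT cells (SD, n = 3 each).

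Of 17 tested genes known as transcriptional targets of TGF-beta, 0 rose, 2 fell and 15 missed the threshold (median log2 fold change -0.16). Id3, named after its values were seen, had 1.4, 0.992 and 2.17 CPM in RXRKO libraries, against 0.519, 0 and 0.718 CPM in WT libraries, with an edgeR adjusted p of 0.0601 (log2 fold change 1.63). It passed in 4 of its 14 alternatives, among them DESeq2, no filter and without RXRKO replicate 2, and its log2 fold change ran from 1.23 to 2.36 over the 14. With 5, 0 and 11 reads in WT libraries, Id3 met the filter on low counts only with its RXRKO libraries. Its difference is therefore a description only. Unadjusted p-values under 0.05 in edgeR numbered 2 among those higher in RXRKO cells and 3 among those lower. Those that fell were Tsc22d1, a leucine zipper gene, which averaged 35.6 ± 0.763 CPM in RXRKO cells and 59.6 ± 3.65 CPM in WT cells (-0.74, SE 0.089, edgeR adjusted p = 9.67e-05), and Klf11, a zinc finger gene, at 9.39 ± 0.734 CPM against 15.6 ± 2.26 CPM (-0.74, SE 0.141, edgeR adjusted p = 0.00274; SD, n = 3 each). A further list holds macrophage genes linked to TGF-beta in tissue-resident cells such as microglia. Of its 11 tested genes, 3 rose, 3 fell and 5 did not pass (median -0.02). It includes Csf1r and Adgre1, which are also in the macrophage marker list, so these counts are no measure of TGF-beta dependence. Csf1r, the CSF-1 receptor gene, rose (0.39), and Olfml3 fell to 6 ± 1.18 CPM in RXRKO cells, against 11.9 ± 1.88 CPM in WT cells (SD, n = 3 each).

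Markers of other cells are given beside these groups, and their part in the results was not tested. Platelet and megakaryocyte genes summed to 82 to 100 CPM in RXRKO libraries and 97.4 to 130 CPM in WT libraries. Most of each sum came from Pf4, which averaged 70.7 CPM in RXRKO cells and 86.1 CPM in WT cells. Itga2b (5.35 CPM in RXRKO cells, 7.02 CPM in WT cells) and Ppbp (3.03 and 4.71 CPM) lay far below Pf4. Gp9 (0.324 and 0.299 CPM) and Gp1bb (0.363 and 0.456 CPM) were too scarce to test. Of the 6 genes of this list, 4 were tested and Itgb3, which is also in the activation list, fell. Fibroblast genes summed to 4.21 to 10.5 CPM in RXRKO libraries and 9.65 to 11.2 CPM in WT libraries, and 1 of 3 tested fell. Neutrophil genes summed to 695 to 757 CPM in RXRKO libraries and 717 to 823 CPM in WT libraries, where 2 of 7 fell. T and B cell genes summed to 10.1 to 12.5 CPM in RXRKO libraries and 10 to 14.5 CPM in WT libraries, nearly all from Cd4, with Trbc2 at 0 reads. Dendritic cell genes summed to 1.15 to 2.28 CPM in RXRKO libraries and 0.914 to 1.87 CPM in WT libraries, and none of the 6 passed the filter. Of 7 macrophage markers 3 rose, 1 fell and 3 did not pass.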

How the data were processed

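Messenger RNA libraries were made from 100 ng of total RNA using NEBNext Ultra II reagents and sequenced from a single end over 75 cycles, per the labels' protocols. TopHat2 2.0.7, DESeq, mm10 and GRCm38 are named in the submitters' processing notes, while the annotation, the counting program and any use of strand were not given in the sources used here. The authors deposited whole-number counts per Ensembl gene for 45193 genes, which were used for the main tests. They also gave a table of log2 values that they normalized, in which a column equals log2 of its counts after multiplication by 1 factor per library. The factors were 0.906, 0.617 and 0.846 in RXRKO libraries and 1.61, 2.04 and 1.01 in WT libraries. A factor below 1, as in each RXRKO library, turns 1 read into a negative log2 value. Genes with reads but listed at 0, which depart from this rule of 1 factor, numbered 3522, 2422 and 2852 in the RXRKO columns and 0 in each WT column.

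Symbols, positions and exon lengths came from GENCODE M21 (GRCm38), which held 45106 of the identifiers; no member shares exon bases with another gene there. Promoter sequences came from RefSeq (GRCm38.p6). The main test was that of edgeR 4.0.16 (R 4.3.3; robust quasi-likelihood F test, TMM, filterByExpr with a minimum count of 10 and a minimum total of 15, genotype alone as the design), with Benjamini-Hochberg adjustment over 12011 genes at 0.05. An SE was obtained as the size of the log2 fold change over the root of its F, and intervals use the t distribution at 95%. Levels are TMM-scaled CPM. The script was tested on simulated data. Alternatives were RLE, upper-quartile and no factors, no filter, a minimum CPM of 1 in 3 libraries, DESeq2 1.42.0, limma 3.58.1 with voom and on the authors' values as log2(linear value + 1), the replicate block, each library left out, and, chosen after seeing the data, counts thinned to the smallest library.

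The members, lists and tests were chosen with earlier results of these data known. Named genes are the members, the modified genes, up to 2 that rose and 2 that fell with the smallest adjusted p in each pathway list (or its most abundant gene), the most abundant gene of each marker list, Xist and Ddx3y; others are said to be named after their values were seen, and some genes that the rule names are not reported here. The most abundant markers were Csf1r, Col1a1, Pf4, Ltf, Cd4 and Zbtb46.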

Additional observations from a re-analysis of the deposited data

How the results depend on the processing

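Smad3 and Ski passed in all 16 alternatives, and the number of members that passed was 2 in each but DESeq2 and edgeR without WT replicate 2, where Tgfb1 made it 3. With each library left out in turn, members called ranged from 2 to 3, pathway genes called from 16 to 29, and all genes called from 1286 to 2607. With the replicate number as a block, 2 members passed, while pathway genes called came to 18 and all genes called to 1375, and the calls of Itgb1, Furin, Fn1, Bmpr1a, Bmpr2, Usp9x, Wwp1, Fkbp1a and Runx1 were among those not made; the cause was not tested. Same-numbered libraries did not deviate together (r = 0.0528, -0.275 and -0.259 for numbers 1, 2 and 3), so the numbers were not taken as pairs. Of 160 values of single members under the alternatives, 1 changed sign: the log2 fold change of Tgfbr2 was -0.01 without RXRKO replicate 2 and ranged from -0.01 to 0.08 with each library left out, never past the threshold. With no filter the median of all genes tested moved to 0.12, with 27301 genes tested. The ratio of Smad3 to Smad2 differed 2.86-fold to 3.41-fold and that of Ski to Skil 1.52-fold to 1.61-fold with each library left out. Smad7 had the fewest reads of the members, 101 over the WT libraries.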
